A study of Mus musculus with 6 samples.

Results

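Genes of immature thymocytes were followed in regulatory T cells (Treg) sorted from the thymus, over 10 genes fixed by symbol (Rag1, Rag2, Dntt, Ptcra, Cd8a, Cd8b1, Arpp21, Rmnd5a, Mns1 and Cd24a) among the 32801 genes of the table. All 10 were present in it. The samples came from 2 inbred strains at the age of 3 weeks, NOD, which develops autoimmune diabetes, and C57BL/6 (B6), with 3 libraries each. In both strains the cells were sorted as CD4+CD8- and Thy1.1+ and were GFP-negative, and the sources used here do not say which gene drives the GFP or the Thy1.1. Values are normalized counts, that is, read counts divided by a size factor of the library and rounded.

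Thymocytes assemble their antigen receptor genes in stages. At the double negative stage, with neither CD4 nor CD8 on the surface, the RAG1 and RAG2 recombinase cuts the beta locus, terminal transferase (Dntt) adds bases at the joints, and the pre-T alpha chain (Ptcra) pairs with the new beta chain. At the double positive stage both coreceptors are on, RAG acts again on the alpha locus, and selection then switches RAG off. Cells that mature as CD4 single positive, most Treg among them, silence the Cd8 genes and lower Cd24a, and a CD4+CD8- gate excludes cells with surface CD8.

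Foxp3, the lineage factor of Treg, was read at 2018 ± 305 normalized counts in NOD (SD, n = 3) and B6 stood at 2061 ± 344 (SD, n = 3). Of the 8 genes of sorted cell identity, limma called 2 higher in NOD and 0 lower, against 4.59% and 5.30% of all tested genes. Thy1 was at 6419, 5236 and 5608 in NOD against 2907, 2618 and 2649 in B6 (adjusted p = 6.2e-05). Cd3e was at 2118, 1598 and 2031 against 1088, 1051 and 1207 (adjusted p = 0.0022). Cd4 and Ctla4 also lay higher in every NOD library than in every B6 library and did not pass (0.077 and 0.35). Normalized totals were 16097369 to 17625903 per library, and the depth estimated from the rounding was 15500000 to 21600000 reads. NOD library 10 stood apart in its cell cycle genes: the 14 on the list summed to 10964 normalized counts there, against 20199 and 20285 in the other NOD libraries and 15255 to 18699 in B6. It was also the lowest NOD library for 5 of the 8 members that were tested. B6 library 12 was the lowest of its strain for 6, with Dntt tied at 25 in B6 library 20. The labels do not say whether replicates are separate animals, and every limma p-value here reflects only the scatter among these libraries, possibly technical. In bulk samples, fewer cells of a type and less RNA per cell cannot be told apart.

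Of the 10 genes, 8 reached 10 normalized counts in at least 3 libraries and were tested, each of them at that level in at least 5 libraries. With limma over 16442 genes, Cd8a rose in NOD and Rag1 and Mns1 fell. The other 5 did not pass at an adjusted p below 0.05. Among all tested genes limma called 9.89%, with 4.59% higher and 5.30% lower. At an unadjusted p below 0.05 stood 5 of the 8 members and 20.3% of all tested genes. The strains did not overlap for 5 of the 8 (Rag1, Dntt, Arpp21 and Mns1 lower in NOD, Cd8a higher), and for 24.1% of all tested genes (12.1% with NOD above and 11.9% with NOD below). The median log2 difference of the 8 was -0.67, against 0.01 over all tested genes. The members were chosen with earlier results of these data known, so these shares are no test of the group. The same 3 genes were called without NOD library 10. The count of lower calls was 1 without NOD library 2 or B6 library 4, and that of higher calls was 0 without NOD library 18.

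**Figure D1:**
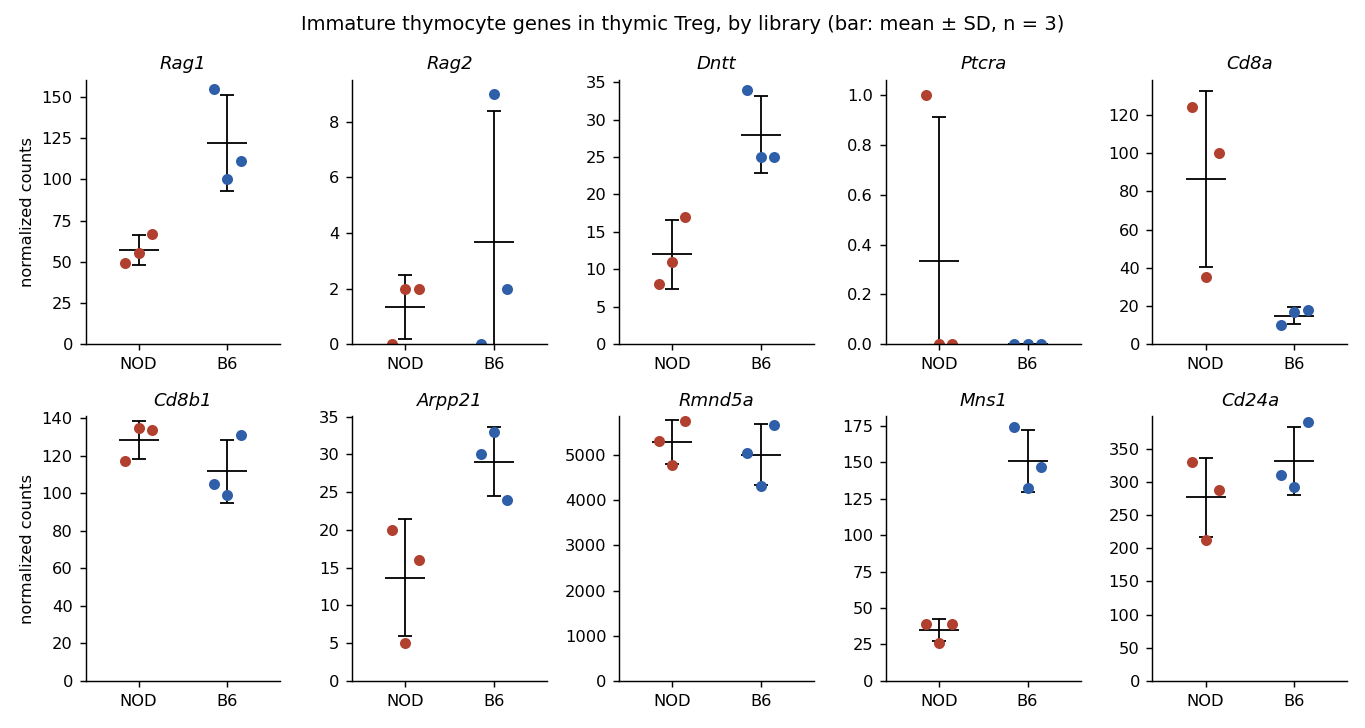
Normalized counts of the 10 genes in each library (points; vertical axes start at 0 and differ between panels, and an SD bar that would pass below 0 is cut there), with the mean and SD of each strain (n = 3). NOD and B6 points do not overlap for Rag1, Dntt, Arpp21, Mns1 and Cd8a, and Rmnd5a lies between 4305 and 5765 in every library.

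The recombination genes were read at low levels. Rag1, the catalytic subunit of the recombinase, was at 49, 55 and 67 normalized counts in NOD libraries 2, 10 and 18, and at 155, 100 and 111 in B6 libraries 4, 12 and 20. The highest NOD library thus lay below the lowest B6 library. Its log2 difference was -1.07 ± 0.25 (SE, limma adjusted p = 0.017), and the NOD mean was 0.467 of the B6 mean. Leaving out NOD library 2 (adjusted p = 0.066) or B6 library 4 (adjusted p = 0.099) ended the call. Rag2, the partner subunit, was at 0, 2 and 2 in NOD and 0, 9 and 2 in B6, too low to be tested. Only B6 library 12 stood above 3 reads, the limit that a count of 0 allows, which are worth 2.41 to 3.41 normalized counts in these libraries (counting error only). Dntt, the terminal transferase, was at 8, 11 and 17 in NOD and 34, 25 and 25 in B6. Its groups did not overlap either, but the log2 difference of -1.20 ± 0.40 did not pass (adjusted p = 0.095). Blnk, a B cell adaptor and the nearest protein-coding gene to Dntt on its lower side, 34739 bases away on chromosome 19, was also low, at 2, 3 and 6 in NOD against 8, 13 and 10 in B6, under the level for testing.

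Rag1 and Rag2 lie tail to tail on chromosome 2, with 5752 bases between them (Rag1 at 101638282 to 101649501 on the minus strand, Rag2 at 101624718 to 101632529 on the plus strand, GRCm38). Per kilobase of exon, the level of Rag1 was 8.63 ± 1.39 normalized counts in NOD and 18.5 ± 4.4 in B6, and that of Rag2 was 0.389 ± 0.337 and 1.07 ± 1.38. Both genes lie within the span of B230118H07Rik, whose values were 8 to 13 in NOD and 6 to 20 in B6, a log2 difference of -0.32 ± 0.52. The sequence shown is the 250 bases before the RefSeq start of Rag1 (GRCm38.p6, chr2:101649533-101649782, minus strand), because Rag1 is the recombination gene that passed the test. Capitals mark CAGNTG, the core bound by E proteins, searched on both strands.
Rag1: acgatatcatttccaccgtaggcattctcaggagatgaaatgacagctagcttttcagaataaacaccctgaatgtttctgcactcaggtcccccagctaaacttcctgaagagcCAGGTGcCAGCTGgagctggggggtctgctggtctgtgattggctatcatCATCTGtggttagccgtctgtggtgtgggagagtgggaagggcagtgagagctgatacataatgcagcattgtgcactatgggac
It holds 3 matches, which begin 135, 128 and 85 bases before the start. Over all 32851 RefSeq promoter windows of this length, 44.8% hold at least 1. A match is a description of the letters and not a bound site. Starts of 8 of the 10 genes were in the RefSeq table.

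The pre-T alpha gene Ptcra, on chromosome 17 (46755663 to 46763712), was at 1 normalized count in NOD library 2 and at 0 in the other 5 libraries. All 6 values lie under the worth of 3 reads, so Ptcra was not detectable at this depth.

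Mns1, which encodes a coiled-coil protein known from sperm flagella and motile cilia, gave the largest fall of the 8 genes tested. It was at 39, 26 and 39 normalized counts in NOD and at 174, 132 and 147 in B6. Every NOD library was at 39 or below and every B6 library at 132 or above. The log2 difference was -2.11 ± 0.25 (95% interval -2.66 to -1.55, limma adjusted p = 0.00022), with an NOD mean 0.23 of the B6 mean. It kept its call with each library left out, at log2 differences of -2.20 to -1.92.

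The Mns1 gene (chromosome 9, 72438011 to 72462025, plus strand, GRCm38) overlaps others. Gm36948, an unnamed transcript on the same strand within its span, fell alongside it, at 5, 5 and 2 normalized counts in NOD and 23, 15 and 17 in B6 (log2 difference -2.0 ± 0.50, adjusted p = 0.026). It reached 10 in the B6 libraries only, and its call held with NOD library 10 left out and with none of the other 5 (adjusted p of 0.053 to 0.14). Tex9, which overlaps Mns1 on the opposite strand, was at 92, 54 and 74 in NOD and 62, 38 and 80 in B6, with overlapping groups (0.32 ± 0.32, adjusted p = 0.68). The strand setting of the counting is not given in the sources used here, so reads of Mns1 and Tex9 cannot be told apart with certainty where they overlap. Reads of both strains were aligned to a B6-derived genome, and the part of NOD sequence differences in the Mns1 value was not tested. The 250 bases before the RefSeq start of Mns1 (GRCm38.p6, chr9:72438279-72438528, plus strand) are shown as the start of the gene with the largest fall; this start lies inside the GENCODE span of the gene.
Mns1: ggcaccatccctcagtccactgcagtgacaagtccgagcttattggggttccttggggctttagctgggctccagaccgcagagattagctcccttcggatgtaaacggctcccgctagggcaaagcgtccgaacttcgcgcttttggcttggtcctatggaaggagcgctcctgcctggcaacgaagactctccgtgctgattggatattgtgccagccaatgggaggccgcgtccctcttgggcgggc
They are 59.6% G or C, against 50.8% for Rag1, and hold no CAGNTG.

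Arpp21, which encodes an RNA-binding phosphoprotein known from neurons and double positive thymocytes, was another member without overlap that did not pass. Values stood at 20, 5 and 16 normalized counts in NOD and at 30, 33 and 24 in B6. The groups did not overlap, yet the log2 difference of -1.21 ± 0.49 did not pass (limma adjusted p = 0.18). NOD library 10 held the lowest value, and without it the difference was -0.66 ± 0.39 (adjusted p = 0.35). Arpp21 has 17428 bases of exon when its 31 annotated transcripts are joined. Over that length these counts come to 0.784 ± 0.446 normalized counts per kilobase in NOD and 1.66 ± 0.26 in B6.

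Rag1, Dntt and Arpp21 thus had NOD means of 0.467, 0.429 and 0.471 of the B6 means, with wide intervals on the log2 scale (-1.61 to -0.53, -2.08 to -0.32 and -2.28 to -0.13). Mns1 lay below these, and its interval did not reach the estimate of any of them. Differences between genes were not tested.

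**Figure D2:**
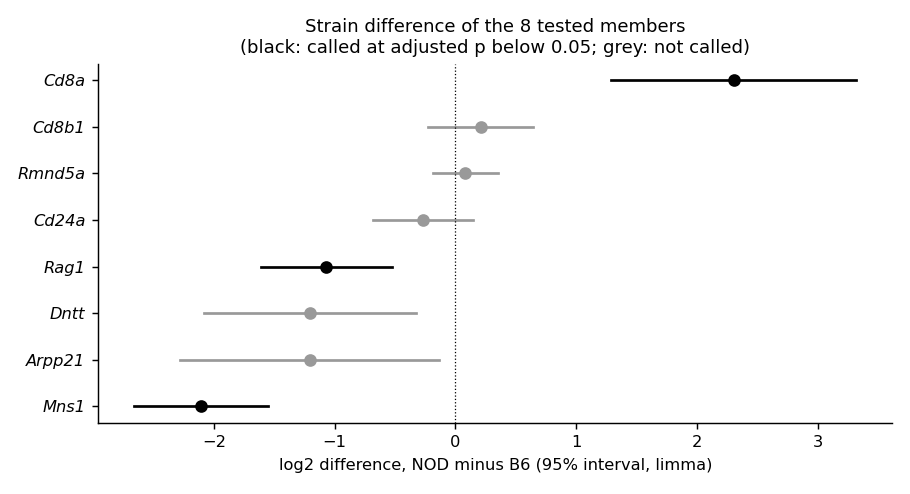
Log2 difference, NOD minus B6, of the 8 tested genes (points, with limma's 95% interval, not adjusted for the number of genes); black marks genes called at an adjusted p below 0.05. Mns1 (-2.11) and Rag1 (-1.07) lie left of 0 and Cd8a (2.31) right of it, while the intervals of Cd8b1, Rmnd5a and Cd24a include 0.

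The 2 chains of the CD8 coreceptor parted. Cd8a, the alpha chain, was at 124, 35 and 100 normalized counts in NOD and at 10, 17 and 18 in B6. Each NOD library lay above each B6 library, but the NOD values spread widely, with library 10 far below the other two. The log2 difference was 2.31 ± 0.46 (limma adjusted p = 0.0075), a mean 5.76-fold higher in NOD. Leaving out NOD library 18 ended the call (adjusted p = 0.051), and without NOD library 10 the difference was 2.85 ± 0.37 (adjusted p = 0.00047). Cd8b1, the beta chain, was at 117, 135 and 134 in NOD and at 105, 99 and 131 in B6. Its groups overlapped, and the log2 difference was 0.21 (95% interval -0.22 to 0.65, adjusted p = 0.65).

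The ratio of Cd8a to Cd8b1 within a library was 1.06, 0.259 and 0.746 in NOD and 0.0952, 0.172 and 0.137 in B6. The chains form an alpha-beta heterodimer on conventional CD8 T cells and double positive thymocytes, while an alpha-alpha homodimer is known from some innate-like T cells and dendritic cells. Per kilobase of exon, the level of Cd8a was 23.7 ± 12.7 normalized counts in NOD and 4.12 ± 1.20 in B6, below that of Cd8b1 in both strains (86.8 ± 6.8 and 75.3 ± 11.5). Cd8b1 stood above Cd8a per length in B6 by more than in NOD, in cells sorted as CD8-. Each length joins the exons of all annotated transcripts, 3637 bases from 3 for Cd8a and 1483 from 1 for Cd8b1. The gap per length between the chains therefore depends on the annotation.

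Rmnd5a, a subunit of the CTLH ubiquitin ligase complex, is the protein-coding gene next to Cd8a. On chromosome 6 (GRCm38), Cd8b1 (71322788 to 71337494) and Cd8a (71373427 to 71379173) are 35932 bases apart on the plus strand, and Rmnd5a (71388634 to 71440637, minus strand) ends 9460 bases from Cd8a. Rmnd5a was at 5322, 4782 and 5765 normalized counts in NOD and 5057, 4305 and 5665 in B6. The strains overlapped, with a log2 difference of 0.08 (95% interval -0.19 to 0.35, adjusted p = 0.80). Of the 3 neighbours only Cd8a passed the test, though differences among them were not tested. Rmnd5a was also by far the most abundant of the 10 genes per length, at 780 ± 73 normalized counts per kilobase in NOD and 738 ± 100.4 in B6. At this level in sorted Treg, Rmnd5a is no marker confined to immature cells, and it is named here by symbol only. Its level in immature cells was not measured here. Gm44130, an unnamed transcript on the same strand within its span, was at 158, 109 and 128 in NOD against 202, 210 and 201 in B6 and did not pass (-0.65 ± 0.19, adjusted p = 0.052), although it did without NOD library 2 (0.042). The 250 bases before the Cd8a start (GRCm38.p6, chr6:71373177-71373426, plus strand) are shown as the start of the coreceptor chain that rose; an exon of the lincRNA Gm44174, on the same strand, lies within them.
Cd8a: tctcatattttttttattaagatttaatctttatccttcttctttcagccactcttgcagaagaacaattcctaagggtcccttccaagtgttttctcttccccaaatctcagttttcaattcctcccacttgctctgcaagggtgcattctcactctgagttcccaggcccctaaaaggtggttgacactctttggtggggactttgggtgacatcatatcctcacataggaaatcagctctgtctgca
They hold no CAGNTG, whereas the same window of Rmnd5a holds 1, beginning 88 bases before its start.

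**Figure D3:**
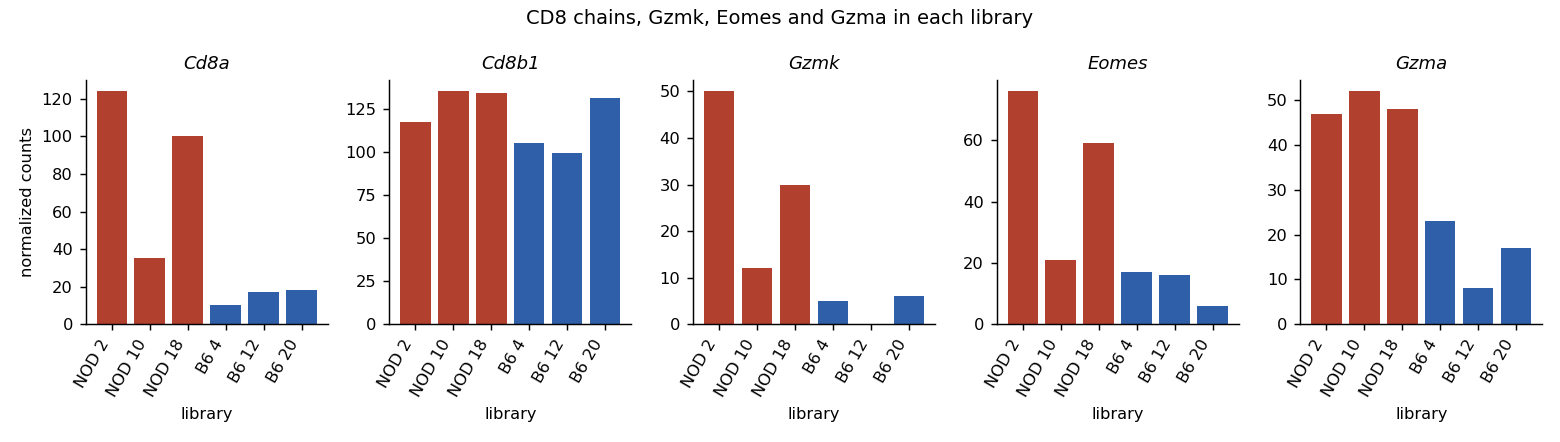
Normalized counts in each of the 6 libraries (bars, red NOD, blue B6; axes start at 0 and differ between panels) of the CD8 chains and of Gzmk, Eomes and Gzma, genes of cytotoxic and innate-like T cells chosen after their values were seen. Cd8a, Gzmk and Eomes are highest in NOD library 2, then 18, then 10, and Cd8b1 and Gzma do not follow that order. Some cell cycle genes, not shown, share the order of Cd8a.

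Genes of CD8 and innate-like T cells moved with Cd8a in some cases. Gzmk, a granzyme of memory and innate-like T cells, was at 50, 12 and 30 normalized counts in NOD and at 5, 0 and 6 in B6. Eomes, a transcription factor of memory CD8 T and NK cells, was at 76, 21 and 59 in NOD and 17, 16 and 6 in B6. Both put the NOD libraries in the same order as Cd8a. So did some cell cycle genes in NOD libraries 2, 10 and 18, among them Mki67 (5341, 2134 and 5182) and Top2a (4879, 2040 and 4863). Others, such as Cdk1 (328, 121 and 411), did not. The order of Cd8a is thus not particular to genes of CD8 and innate-like T cells. Gzma, another granzyme, was at 47, 52 and 48 in NOD and 23, 8 and 17 in B6 and did not follow that order (1.67 ± 0.40, adjusted p = 0.020). Other genes of the list went the other way, with Klrd1 at 2, 0 and 6 against 6, 11 and 10 in B6 and Xcl1 at 9, 11 and 11 against 17, 19 and 13. Gzmk passed the test (log2 difference 2.98 ± 0.78, limma adjusted p = 0.033) and Eomes did not (1.86 ± 0.53, adjusted p = 0.0501), although it did without NOD library 10 (adjusted p = 0.008). Gzmk reached 10 in NOD only, and held its call just with NOD library 10 or B6 library 20 left out (otherwise 0.054 to 0.16). Of 15 genes on this list, 12 were tested, 2 were higher (Gzmk and Gzma) and 1 lower (Ccl5), with a median log2 difference of 0.01. Higher calls on it numbered 0 without NOD library 2, NOD library 18 or B6 library 12 and 1 without B6 library 4. Ccl5 held its call just with NOD library 2 or B6 library 12 left out (otherwise 0.055 to 0.19). Summed, the list stood at 8002 to 10919 in NOD and 9814 to 11168 in B6, of which Itgae alone made up 5648 to 8531 and 6853 to 8471. The sum thus mostly follows Itgae. The marker Nkg7 was at 311 to 474 in NOD and 423 to 585 in B6. The part of such cells in the Cd8a value was not tested.

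Cd24a, the heat-stable antigen that thymocytes lose as they mature, was at 330, 213 and 288 normalized counts in NOD and at 311, 293 and 390 in B6. The ranges overlapped, and the log2 difference was -0.27 (95% interval -0.69 to 0.15, limma adjusted p = 0.50). Per kilobase it stood at 107 ± 23 in NOD and 128 ± 20 in B6, above every other member but Rmnd5a. Red cells carry Cd24a too. Of 9 erythroid genes in the table, the haemoglobin gene Hbb-bs was at 0 to 7 in NOD and 0 to 15 in B6, and 2 were tested: Alas2 (33, 30 and 44 against 20, 40 and 17) and Epor (19, 11 and 17 against 5, 3 and 7). Epor reached 10 in NOD only, and limma called 0 of the 2, with 1 at an unadjusted p below 0.05. The list summed to 55 to 63 in NOD and 30 to 52 in B6, higher in every NOD library, and its part in the Cd24a value was not tested.

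Other genes high in double negative and double positive thymocytes did not move in a common direction. Of 25 such genes, 17 were tested, 2 rose and 3 fell, with a median log2 difference of 0.05 against 0.01 for all tested genes. Mpzl2, an adhesion protein of immature thymocytes and epithelia, rose from 21, 48 and 55 normalized counts in B6 to 161, 251 and 335 in NOD (log2 difference 2.61 ± 0.37, limma adjusted p = 0.00072). It kept its call with each library left out. The Notch target Dtx1 also rose (77 ± 15.7 against 31.7 ± 14.5, adjusted p = 0.046). Myb, a transcription factor of progenitors, fell from 871, 1082 and 1334 in B6 to 723, 454 and 617 in NOD (-0.88 ± 0.19, adjusted p = 0.012). Notch3 (4 ± 3.46 against 22.7 ± 11.4, adjusted p = 0.038) and Lyl1 (2.33 ± 1.53 against 12.7 ± 2.52, adjusted p = 0.037) fell at low levels, and both reached 10 normalized counts in 3 libraries only, all B6.

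Each of these calls other than that of Mpzl2 was lost in at least 1 fit with a library left out. Such fits hold fewer libraries, so a lost call alone does not show that a single library set the difference. Dtx1 lost its call without any library but B6 library 12 (adjusted p of 0.063 to 0.12) and Lyl1 without any of the 6 (0.052 to 0.15). Notch3 held it just with NOD library 18 or B6 library 20 left out (otherwise 0.082 to 0.17). Myb lost it without B6 library 12 or B6 library 20 (0.054 and 0.053). The list then held 1 higher gene in each fit but that without B6 library 12, and 1 lower gene in each but that without NOD library 18. The double positive genes Cd1d1 (1290 ± 176 against 1063 ± 94.5) and Aqp11 (28.7 ± 2.5 against 44.3 ± 14.0) did not pass.

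Of 15 genes of end joining and recombination, among them the Ku subunits Xrcc5 and Xrcc6 and the ligase Lig4, limma called 0, with 2 at an unadjusted p below 0.05 and a median log2 difference of -0.03. Hmgb1, a DNA-bending cofactor of RAG, had a mean of 3109 ± 444 normalized counts against 4006 ± 472 in B6 (-0.37 ± 0.13, adjusted p = 0.13). Of 21 regulators of Rag, Ptcra and Cd8 transcription, 2 rose and 2 fell. Satb1, a chromatin organizer that acts on these loci in thymocytes, rose from 9087 ± 830 to 14472 ± 1962 (0.67 ± 0.12, adjusted p = 0.0049), as did E2f2 (0.62 ± 0.11). Id2, an inhibitor of E proteins, fell from 4241 ± 384 to 2581 ± 247 (-0.72 ± 0.11, adjusted p = 0.0015), as did Tox (-0.58 ± 0.14), a factor of CD4 lineage development. Tox held its call just with NOD library 2, NOD library 10 or B6 library 20 left out (otherwise 0.057 to 0.12), and without NOD library 10 the list held 5 higher genes. Foxo1, an activator of Rag transcription, had a mean of 3463 ± 589 against 2832 ± 38 in B6 and did not pass (adjusted p = 0.26), although it did without NOD library 10 (0.017). Of 16 genes that track the maturation of single positive thymocytes, 3 rose (Satb1, Slamf6 and S1pr1) and 3 fell (H2-Q7, Sox4 and Il7r), with 1 lower gene left without B6 library 4. Reads of both strains were aligned to a B6-derived genome, and the part of NOD sequence differences in the H2-Q7 value was not tested.

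Precursor B cells and plasmacytoid dendritic cells also transcribe Rag or Dntt, and their markers were read beside these genes. Of 14 B cell genes, Igll1 was at 0 in every library, Vpreb1 at 0 in NOD and 0 to 3 in B6, and Pax5 at 0 to 3. The factor Ebf1 was at 17, 15 and 14 normalized counts in NOD and 52, 29 and 31 in B6, lower in NOD with no overlap, and did not pass (limma adjusted p = 0.064). Cd79a, a chain of the B cell receptor, was at 56, 58 and 86 in NOD against 32, 48 and 55 in B6, higher with no overlap, and did not pass either (0.34). Summed, the B cell list stood at 5405 to 5891 in NOD and 3848 to 4562 in B6, of which Ighm, the 1 gene called, made up 4979 to 5406 and 3433 to 3877. Of 15 dendritic cell genes, 9 were tested and 3 fell (Cd74, H2-Aa and Zbtb46). The part of NOD sequence differences in the H2-Aa value, with reads aligned to a B6-derived genome, was not tested. The 15 summed to 2513 to 2981 in NOD and 3643 to 3719 in B6. Of these sums Cd74 made up 315 to 406 and 654 to 792, and Zbtb46 713 to 962 and 1084 to 1272. Clec9a was at 0 to 1, Siglech at 1 to 8 and Itgax at 2 to 16. The list shares Ccr9 and Ly6d with that of other immature genes. Other genes of the list were well above 0 in both strains, with Xcr1 at 56 to 99 in NOD and 84 to 94 in B6, Irf8 at 384 to 633 and 494 to 564, and Bst2 at 545 to 811 and 576 to 660. Cd74 kept its call with each library left out, H2-Aa only without B6 library 12, and Zbtb46 without NOD library 2, NOD library 10 or B6 library 20. The list held 1 lower gene without NOD library 18 or B6 library 4. Macrophage and granulocyte genes summed to 91 to 137 in NOD and 188 to 232 in B6, with 0 of the 3 tested called by limma and 1 at an unadjusted p below 0.05. Leaving out a library lowers the filter to 2 libraries and so admits further genes of the list, and 1 gene was then called lower without NOD library 10 or B6 library 20 and 2 without NOD library 18. Thymic epithelium genes summed to 484 to 545 in NOD and 491 to 636 in B6, with Krt14 at 0 in every library, and Aire was the 1 of 5 tested that fell (3, 5 and 2 against 12, 13 and 23, adjusted p = 0.037). It reached 10 in the B6 libraries only, and its call held just with NOD library 10 left out (otherwise 0.090 to 0.14). The sums of the dendritic and the macrophage lists were lower in every NOD library than in every B6 library, as were Rag1, Dntt, Arpp21 and Mns1, and their part in those values was not tested.

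Over all tested genes, the profiles nearest to each called member were sought, as the root mean square difference of log2 values over the 6 libraries after centring each gene. Nearest to Rag1 were Rnf144a (0.0808), Apoe (0.109) and Pglyrp1 (0.119). Nearest to Mns1 were Npnt (0.159), Rundc3b (0.159) and Ly6e (0.182). Cd8a had no profile as close: Gm12355 (0.372), Stau2 (0.39) and Prkar1b (0.42) came nearest. None of these 9 genes was on the lists above.

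The authors' own statistics for these genes were set beside the values. In the authors' deposited table, Mns1 had a log2 fold change of -2.12 (SE 0.26, adjusted p = 1.6e-14) and Cd8a of 2.52 (SE 0.55, adjusted p = 0.00012). Rag1 had -1.10 (SE 0.46) in the authors' deposited table, with an adjusted p = 0.13, and so was not called there. Dntt (-1.23, adjusted p = 0.30) and Arpp21 (-1.06, adjusted p = 0.34) were not called in the authors' deposited table either. Of the 21988 genes with an adjusted p in the authors' deposited table, 9.75% lay below 0.05.

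The deposited mean of each gene held a further measurement. DESeq2, the tool named, reports a mean over every library of its fit, and for the median gene with at least 10 normalized counts (16127 genes) the mean in the authors' deposited table was 1.002 times the mean of the 6 columns. For Dntt the mean in the authors' deposited table was 199 against 20 over the 6 columns, a ratio of 9.94 that ranked 6 among those genes. Arpp21 (143 against 21.3, ratio 6.69, rank 9) and Rag1 (566 against 89.5, ratio 6.32, rank 11) followed in the authors' deposited table. Cd8a had a ratio of 3.53 (rank 53) and Cd24a of 2.05 (rank 415) in the authors' deposited table, where 2.77% of genes had a ratio of 2 or more. Cd8b1 (1.47, percentile 89.6) and Mns1 (1.26, percentile 79.8) lay above most genes in the authors' deposited table, and Rmnd5a (0.965, percentile 43.6) near the middle. Ccr9 (ratio 11.3, rank 4), Endou (4.93, rank 18) and Dtx1 (3.93, rank 39), from the list of other immature genes, stood high in the authors' deposited table too and were picked after their ratios were seen. Over the 16 genes of that list with a rank, the ratio in the authors' deposited table had a median of 1.34, with 4 at 2 or more and 5 below 1, among them Mpzl2 (0.58), Bcl6 (0.54), Hhex (0.43) and Kit (0.69). Any libraries beyond these 6 that entered the mean are not analysed here, and what sets these ratios was not tested.

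**Figure D4:**
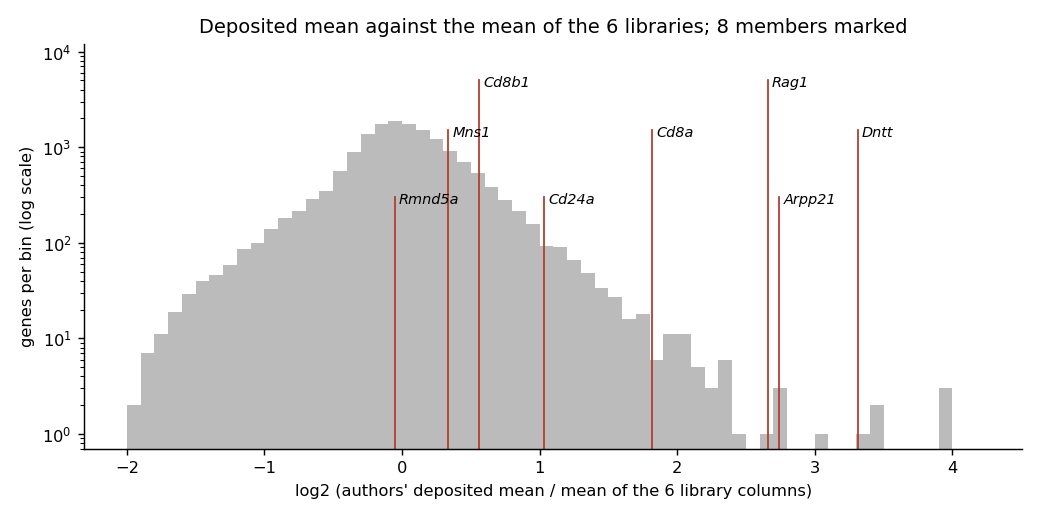
Histogram over 16127 genes of the log2 ratio of the authors' deposited mean to the mean of the 6 library columns (vertical axis, genes per bin, on a log scale), with the 8 genes of the group that reach 10 normalized counts on average as lines, whose heights carry no value. Dntt, Arpp21 and Rag1 lie far to the right, at ratios of 9.94, 6.69 and 6.32, and Rmnd5a lies near the centre at 0.965.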

How the data were processed

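RNA from GFP-negative thymic Treg of NOD and B6 mice was sequenced, with 3 libraries per strain. Trimmomatic, STAR, DESeq2 and the mm10 build are named per the submitters' processing notes. Which counter, annotation and strand setting served is not given in the sources used here. The deposited library columns are scores: counts divided by size factors and rounded. The same deposited table holds the authors' log2 fold changes and standard errors, and their p-values. Columns were matched to strain by name and carry other numbers than the labels' replicates. Size factors were estimated from gaps and doublings left by rounding, at 0.88 to 1.245.

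Genes reaching 10 in 3 or more libraries (2 or more in fits lacking 1 library) were tested with limma 3.58.1 (R 4.3.3) on log2(value + 1), with trend, two-sided, Benjamini-Hochberg over 16442 genes. Fold changes on this scale understate low genes. On simulated libraries of 16381 genes for NOD against B6, 54% of genes changed 1.5-fold, 92% of those changed 2-fold and 100% of those changed 4-fold were recovered, with 2 false calls. The changed genes were drawn only above a mean level that Dntt and Arpp21 do not reach. The simulated scatter had the same setting for all genes, and no library stood apart. These percentages therefore do not give the recovery of low or widely scattered genes. Alternatives were other pseudocounts, filters, scalings and variance models, and omission of each library. The members and lists were chosen with earlier results of these data known. Named genes are the members, called list genes, list markers, overlapping genes and the 3 nearest profiles; list genes that did not pass were chosen after their values were seen. Coordinates are from GENCODE M21 (GRCm38, the assembly of mm10) and promoters from RefSeq (GRCm38.p6).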

Additional observations from a re-analysis of the deposited data

How the results depend on the processing

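Mns1 stayed lower and called under every alternative run, and Rag1 and Cd8a under the 8 that changed the pseudocount, filter, scaling or variance model. With each library left out, Rag1 ran from -1.20 to -0.89 (-0.97 without NOD library 2, -0.89 without B6 library 4) and Cd8a from 1.95 to 2.85 (2.11 without NOD library 18). Lower calls among the 10 genes ran from 1 to 2 and higher calls from 0 to 1. Rmnd5a ran from -0.021 (without B6 library 12) to 0.18, and Foxp3 from -0.13 to 0.10, at 0.089 without NOD library 10 and 0.10 without B6 library 4; neither passed in any of these. Over all genes, the higher count of 755 ran from 490 (without NOD library 18) to 781 and the lower count of 871 from 569 (without B6 library 4) to 1011. Over the other lists, the higher count of 11 ran from 8 to 17 (without NOD library 10). The lower count of 13 ran from 4 (without B6 library 4) to 10, with 8 without NOD library 18 or B6 library 12. Without the variance trend both were 7. The cause was not tested. Of the further values, for single genes whether they passed and for lists how many genes were called, 762 kept their standing, 119 weakened, 19 strengthened and 2 changed sign (both Foxp3). Depth limits Rag2 and Ptcra, at or near 0. No paired analysis was possible because the columns carry no replicate number of the labels, and the numbers they do carry are not shared between the strains.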
